A study of Homo sapiens with 42 samples.

Results

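The cornified envelope is the protein and lipid shell that replaces the plasma membrane of a keratinocyte at the end of its life. The genes described here are 38 genes of that shell and of the late differentiation program that builds it, taken from a list of gene symbols out of 19775 genes measured. The list was chosen with earlier results of these data known. Shares of members set beside the background therefore describe the list and are no independent test. By role they are 17 envelope precursors and scaffold proteins, 3 crosslinking enzymes, 4 barrier lipid enzymes and transporters, 2 calcium-binding proteins, 6 transcription factors, 2 protease inhibitors with 1 protease, and 3 membrane proteins. All 38 had a probe set annotated to 1 gene. Each gene was read from its brightest probe set, and 15 of the 38 had more than 1 to choose from.

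Transcription was measured on Affymetrix hgu133plus2.0 arrays in human squamous cell carcinoma lines of the head and neck. SCC25, SQ20B, SCC61, SCC047, SCC090 and 93VU147T cells each have 3 arrays after 24 hours with 100 nM cetuximab, an antibody that blocks ligand binding to the epidermal growth factor receptor (EGFR), and 3 control arrays labelled untreated, which the study elsewhere calls PBS controls. SCC1 cells have 3 arrays with the same cetuximab treatment, and HaCaT cells, an immortalised but not transformed keratinocyte line, have 3 untreated arrays. The study describes SCC25, SQ20B and SCC61 as HPV-negative and SCC047, SCC090 and 93VU147T as HPV-positive. Control arrays of SCC1 and cetuximab arrays of HaCaT were not analysed here.

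Involucrin and the periplakin and envoplakin proteins form the first scaffold under the membrane, small proline-rich proteins and late envelope proteins thicken it, and transglutaminases join them with covalent bonds in the presence of calcium. Lipids carried to the surface by ABCA12 and modified by the lipoxygenases ALOX12B and ALOXE3 are then attached on the outside. Factors such as GRHL3, ZNF750 and KLF4 switch these genes on as the cell leaves the basal layer, and EGFR signalling in keratinocytes favours growth over this step. Stratified oral epithelium uses many of the same genes.

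Levels are log2 values and differences are log2 differences, so a difference of 1 is a doubling. Changes with cetuximab are cetuximab minus control from 1 limma fit of 36 arrays, and a member is called higher or lower at a Benjamini-Hochberg adjusted p under 0.05 over all 19775 genes. Whether the 3 arrays of a group came from different cultures is not stated, and the p-values therefore rest on array-to-array spread that could be technical. In cultured cells measured in bulk, fewer cells of a type and less RNA per cell cannot be told apart. The median of all values was 5.13, and levels near or under it are dim on this array. The table read here holds no detection calls, so differences from a dim level are given on the log2 scale of the deposited values and are no measure of a true fold. TGM3, CRNN and A2ML1 stayed under it in each of the 14 groups, and the other 35 members exceeded it in 1 or more.

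The arrays carried their labels' main features. DUSP6, a phosphatase induced by ERK signalling downstream of EGFR, passed as lower in 6 of 6 lines (mean log2 change -2.31), and EGR1, an immediate early factor, averaged -2.62 but did not pass in SCC090 (-0.64, adjusted p = 0.28). Of the 4 measured squamous markers of 6 listed, KRT5 lay between 10.59 and 13.47 in the 14 groups, while KRT14 averaged 4.85 in SQ20B control cells, the lowest group. Among genes of other cell types, mean levels were 4.46 to 5.55 for 5 leukocyte genes and 4.60 to 5.15 for 4 endothelial genes. They were 4.60 to 5.01 for 3 melanocyte genes and 4.87 to 6.74 for 7 fibroblast genes. Of the fibroblast genes 4 to 6 lay above the median of all values in each group. COL1A1, a fibroblast collagen gene, reached 9.92 and LUM, of the same list, 9.34 in SCC25 with cetuximab. Of the leukocyte list CD14 reached 7.87 in SCC1 with cetuximab and LAPTM5 7.51 in SCC047 control cells. By scan time there were 3 batches (35, 4 and 3 arrays). SCC090 control replicate 1 stood apart, with correlations over all probe sets of 0.9903 and 0.9912 to the other 2 control arrays, which reached 0.9962 with each other. Calls in SCC090 are therefore given with and without it.

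Of the 38 members 7 lie together in the epidermal differentiation complex, a cluster of envelope genes on chromosome 1. FLG, CRNN, LCE3D, IVL, SPRR1A, SPRR3 and SPRR1B span 731 kb there, from 152302165 to 153032900 in GRCh38.p14. RefSeq promoter windows of 300 bases, from 250 before to 50 after the gene start, were found for 28 of the 38 members, all 7 of the cluster among them. The AP-1 motif TGANTCA, read on both strands, allows any base in the middle. It is looser than the FOS and JUN consensus, which has C or G there. The pattern therefore also counts TGAATCA, the only match in FLG and CRNN, and TGATTCA, the only form in ALOXE3. It occurred in windows of 12 of the 28 members (42.9%), against 7.71% of all 35116 windows, and in 6 of the 7 cluster members. Here and below, members are counted by gene and the background by window, so the shares differ in unit. Stretches of 47 bases around the motif in the windows of those 6 cluster members are shown. Among the members, FLG, IVL, SPRR1B and SPRR1A had the largest HaCaT differences described below, with SPRR3 and the dim CRNN as neighbours. Capitals mark the motif, the strand is that of the gene, and SPRR1B holds a pair of matches.
FLG, chr1:152325292-152325338, minus strand: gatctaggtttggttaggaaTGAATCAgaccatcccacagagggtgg
CRNN, chr1:152414330-152414376, minus strand: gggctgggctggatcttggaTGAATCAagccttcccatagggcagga
IVL, chr1:152908403-152908449, plus strand: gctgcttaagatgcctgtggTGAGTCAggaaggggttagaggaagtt
SPRR1A, chr1:152983953-152983999, plus strand: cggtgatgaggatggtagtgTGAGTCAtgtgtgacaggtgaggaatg
SPRR3, chr1:153001559-153001605, plus strand: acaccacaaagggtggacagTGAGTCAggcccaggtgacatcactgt
SPRR1B, chr1:153031042-153031088, plus strand: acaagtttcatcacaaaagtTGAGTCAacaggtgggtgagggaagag
SPRR1B, chr1:153031072-153031118, plus strand: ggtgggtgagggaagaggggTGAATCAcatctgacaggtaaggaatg

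Counted from the gene start, the motif began at -79 in FLG, -93 in CRNN, -123 in IVL, -108 in SPRR1A and -170 in SPRR3, and at -141 and -111 in SPRR1B. The TATA box motif TATAAA was found in windows of 9 members, against 11.5% of all windows, and in FLG, CRNN, IVL, SPRR1A and SPRR3 it began at -29 or -30 and overlapped no AP-1 match. The Grainyhead motif AACCGGTT, the site of the GRHL factors, was in none of the members' windows and in 0.134% of all windows. A match is a run of letters, and binding was not measured.

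In untreated cells the members differed widely from line to line. The level differed between the 6 cancer lines for 37 of 38 members by the moderated F test (background 77.5% of all genes), CDSN, a corneodesmosome adhesion protein, being the exception (adjusted p = 0.0646). The widest spread belonged to SPRR1B, a small proline-rich envelope protein, whose group means had the largest range of the 38 genes over the 7 untreated lines. SPRR1B averaged 12.19 in HaCaT cells, against 9.77 to 10.22 on the arrays of SCC61 and means of 9.79 in SCC047, 8.58 in SCC090, 8.42 in SCC25, 5.27 in 93VU147T and 4.19 in SQ20B. The arrays of SCC61 and SCC047 overlapped, as did those of SCC090 and SCC25, and the other neighbours in this order did not.

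Involucrin (IVL), the scaffold precursor, covered 6.62 units and filaggrin (FLG), which bundles keratin filaments, 6.32. IVL read 11.77, 11.80 and 11.74 in HaCaT cells, and its group means in the cancer lines lay between 5.15 in SQ20B and 6.98 in SCC61. FLG read 9.49, 9.36 and 9.72 in HaCaT cells, against 4.17 in SCC047 and 3.20 to 3.32 in the other 5 lines. FLG was thus dim in all 6 cancer lines, and SCC047 was the 1 line whose arrays stood above the other cancer lines.

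SCEL, ZNF750 and SPRR1A completed the 6 widest ranges, in other orders. SCEL, the envelope precursor sciellin, was highest in SQ20B (9.46) and SCC61 (9.38), whose arrays overlapped. SCC047 (8.36) and HaCaT (8.29) followed and overlapped each other, and SCEL was near 4 in SCC25 (4.13) and SCC090 (3.98). ZNF750, a transcription factor that activates late differentiation genes, averaged 8.32 in SCC090 and 3.06 in SQ20B, with HaCaT at 4.37 overlapping SCC047 at 4.35. SPRR1A averaged 10.84 in HaCaT, between 7.50 and 8.50 in SCC25, SCC047, SCC61 and SCC090, and 6.17 and 5.96 in 93VU147T and SQ20B.

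SQ20B held the lowest cancer line mean of many members at once, among them IVL, SPRR1A, SPRR1B, CSTB, KRTDAP, PI3, TGM5, CALML3, GRHL1, GRHL3, OVOL1, ZNF750 and KLF4, yet the highest of SCEL and of periplakin (PPL, 10.33). SCC090 held the highest mean of CNFN (7.99), ABCA12 (6.63), CALML5 (5.79) and MAL (7.46), each of which was at least 1 unit lower in the other 5 cancer lines. Across the 7 untreated lines IVL and FLG followed each other with r = 0.97 and SPRR1A and SPRR1B with r = 0.96, and CNFN and CALML5 with r = 0.97, while the median over all 703 pairs of members was 0.09. These correlations rest on 7 points, with HaCaT or SCC090 highest in each pair, and are given as a description.

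**Figure D1:**
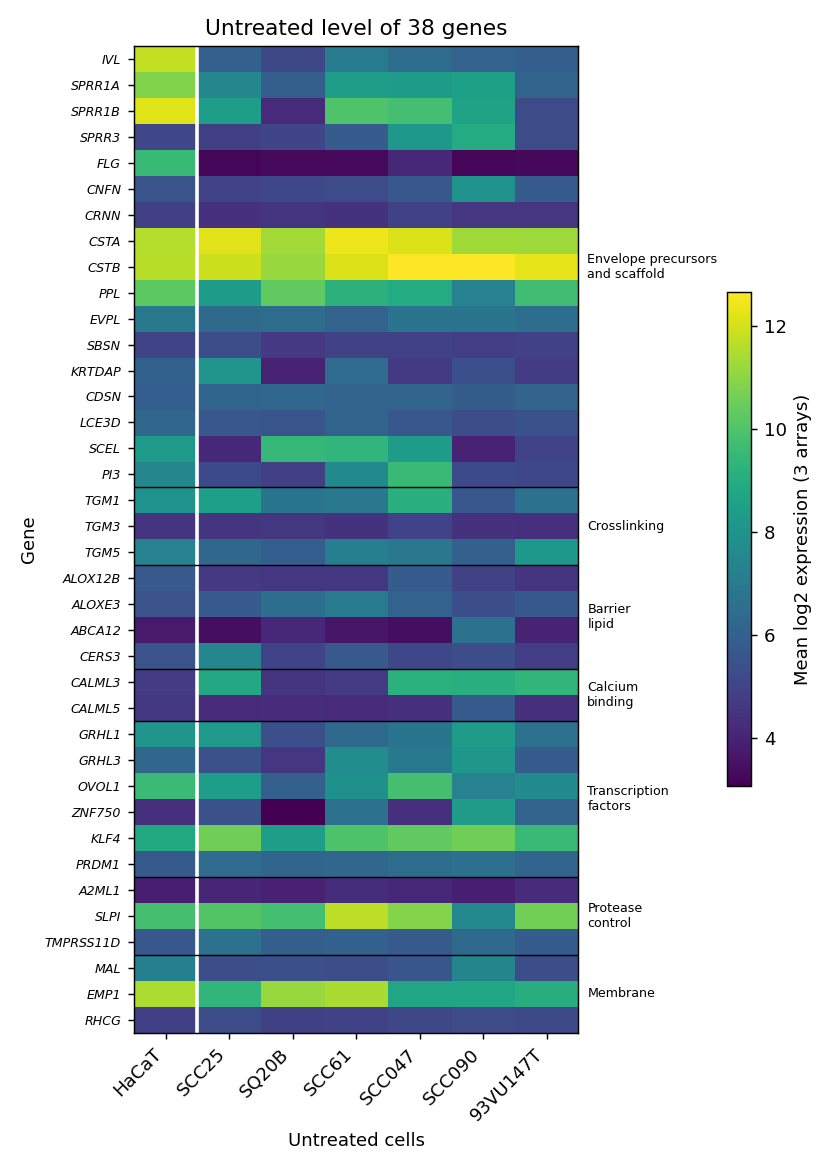
Mean log2 level of each of the 38 genes (rows, grouped by role) in untreated cells of 7 lines (columns, 3 arrays each), HaCaT to the left of the white line. IVL, SPRR1A, SPRR1B and FLG are brightest in HaCaT, and SCC090 stands out for CNFN, ABCA12 and CALML5.

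Untreated HaCaT cells were set against the mean of the 6 untreated cancer lines. Of the 38 members 18 passed as higher (background 25.2%) and 12 as lower (background 30.6%) in HaCaT. The differences were largest in the epidermal differentiation complex, where 6 of 7 members were higher and 1 was lower, with a median difference of 3.35. FLG averaged 9.52 in HaCaT, against a dim 3.42 over the cancer lines (a difference of 6.10 with SE 0.07, limma adjusted p = 4.51e-24). IVL was 51.2-fold higher, with 11.77 in HaCaT and 6.09 in the cancer lines (5.68, SE 0.08, adjusted p = 2.33e-22).

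SPRR1B was 22.3-fold higher (4.48, SE 0.13, adjusted p = 2.03e-17) and SPRR1A 10.2-fold higher (3.35, SE 0.12, adjusted p = 9.02e-16). For these 4 genes all 3 HaCaT arrays lay above all 18 control arrays of the cancer lines (background 5.57%). SPRR1A read 10.65, 10.68 and 11.18 in HaCaT, against at most 8.76 on any cancer control array. PRDM1, a transcriptional repressor, was the 1 member whose HaCaT arrays lay below all 18 (background 5.20%), with 5.90, 5.57 and 5.86.

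SPRR3 did not follow its neighbours in the cluster. It read 5.15, 5.18 and 5.03 in HaCaT, against a cancer line mean of 6.37, and was lower in HaCaT (-1.25, SE 0.14, adjusted p = 1.34e-07). Across the alternative settings, other probe set choices among them, this difference lay between -1.27 and -0.33 and kept its call. SCC090 (8.97) and SCC047 (8.18) had the highest untreated SPRR3. CALML3, a calmodulin-like calcium sensor of epithelia, was lower by -2.92 (4.71 in HaCaT, 7.63 in the cancer lines, adjusted p = 9.09e-12), but the gene's other probe set gave -0.02 (adjusted p = 0.848). On the brighter probe set CALML3 was also low in SQ20B (4.50) and SCC61 (4.72). Among the factors, ZNF750 was lower in HaCaT (-1.28, SE 0.17, adjusted p = 1.38e-06) and so was KLF4 (-1.01, SE 0.12, adjusted p = 2.23e-07), while OVOL1 (1.75) and GRHL1 (1.14) were higher. For each of these a cancer line lay beyond HaCaT. SQ20B was lower for ZNF750 (3.06) and KLF4 (8.41), SCC047 was higher for OVOL1 (9.81), and SCC090 for GRHL1 (8.33).

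The scaffold proteins PPL (1.25) and EVPL (0.43), SCEL (1.57), the elastase inhibitor PI3 (1.25), and the crosslinking enzymes TGM1 (0.72) and TGM5 (0.58) were also higher in HaCaT. Of the barrier lipid genes ALOX12B was higher (0.87), and ALOXE3 (-0.59) and ABCA12 (-0.46) were lower. ALOX12B in SCC047 (5.86) overlapped HaCaT (5.73). ABCA12 was dim in HaCaT (3.74) and in every cancer line but SCC090 (6.63). SCC61 (3.65), SCC25 (3.43) and SCC047 (3.40) had lower ABCA12 means than HaCaT, and SQ20B (4.16) and 93VU147T (3.97) higher ones. The ABCA12 difference without SCC090 was not computed. HaCaT arrays make up a scan batch of their own and HaCaT was grown in a medium of its own, so cell line, scan batch and medium cannot be told apart in these differences. A pair of the HaCaT arrays carries the same array name stem, and counting them as 1 array gave 17 members higher and 11 lower, with the 8 members of the largest differences still past the threshold.

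**Figure D2:**
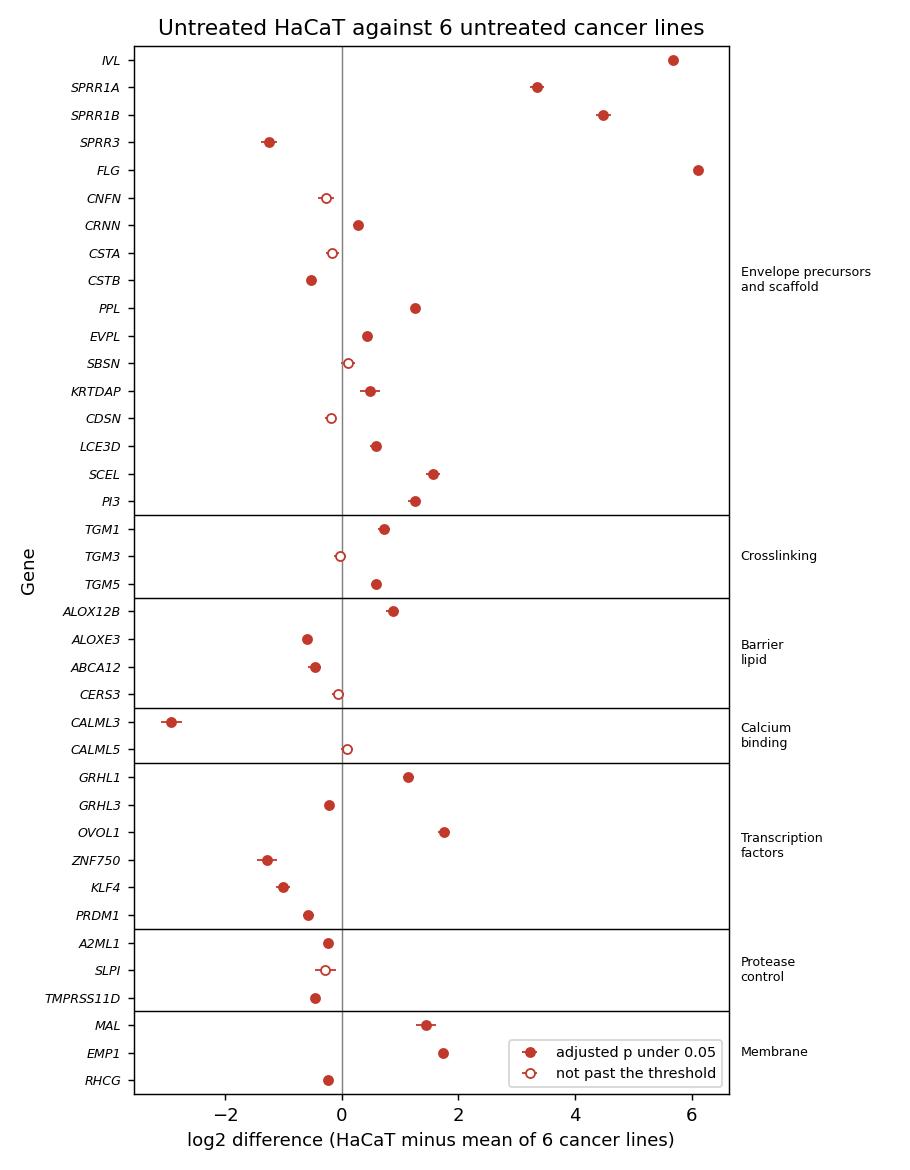
Log2 difference of untreated HaCaT minus the mean of 6 untreated cancer lines for each of the 38 genes, grouped by role, with bars of 1 standard error (3 HaCaT and 18 cancer line arrays). FLG at 6.10, IVL at 5.68, SPRR1B at 4.48 and SPRR1A at 3.35 lie far to the right, and CALML3 at -2.92 is farthest to the left.

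With cetuximab, averaged over the 6 lines, 19 members were higher (50% of the 38, background 22.8%) and 6 were lower (15.8%, background 23.1%). The median member changed by 0.13 and the median of all genes by -0.02. By role, 10 of the 17 envelope precursors were higher and 1 was lower, 4 of 6 transcription factors were higher and 1 was lower, and 2 of 4 barrier lipid genes were higher and 1 was lower. Among the 3 transglutaminases TGM1 was higher and TGM5 lower. Of the 7 genes of the epidermal differentiation complex 5 were higher and 0 lower, with CRNN at 0.06 and LCE3D at -0.05.

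**Figure D3:**
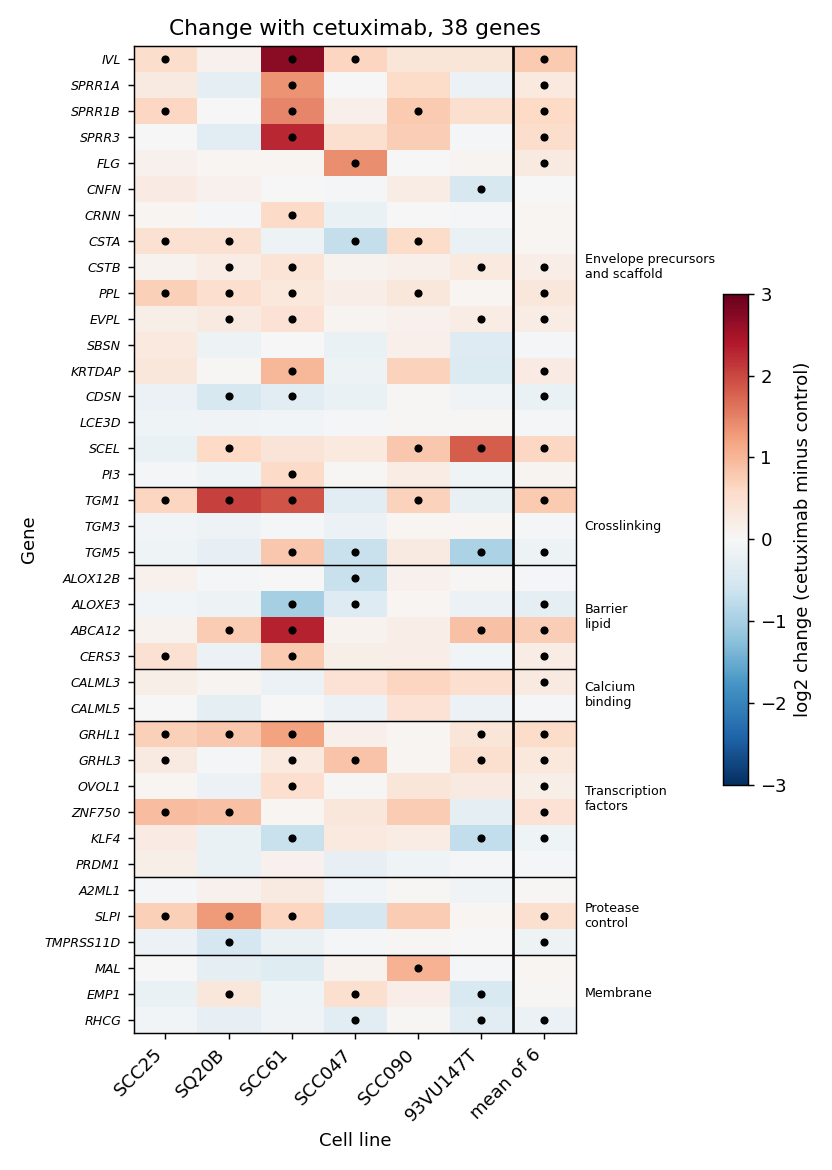
Log2 change with cetuximab (cetuximab minus control) of each of the 38 genes in 6 lines and in their mean, with a black dot where the adjusted p is under 0.05. Red (higher) is strongest in SCC61, where IVL is at 2.70, and few rows keep the same colour and a dot in most lines.

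IVL had the largest mean rise beside TGM1. It averaged 6.88 with cetuximab and 6.09 in control cells (log2 change 0.79, SE 0.06, adjusted p = 6.8e-12), was above its control mean in 6 of 6 lines and passed in SCC25, SCC61 and SCC047. The change was largest in SCC61, where it read 9.71, 9.76 and 9.57 with cetuximab, against 6.86, 6.92 and 7.16 in control cells, a 6.48-fold rise (2.70, SE 0.15, adjusted p = 1.1e-15). Without SCC61 the mean change of IVL was 0.41. In SCC047 IVL read 6.99, 7.44 and 6.89 with cetuximab and 6.63, 6.48 and 6.26 in control cells, and the groups did not overlap (0.65, adjusted p = 0.000738). Even after cetuximab no cancer line reached the IVL level of untreated HaCaT.

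The 3 small proline-rich proteins among the members rose in SCC61. SPRR3 read 8.28, 8.09 and 8.01 with cetuximab and 5.68, 5.83 and 6.06 in SCC61 control cells, a 4.82-fold rise (2.27, SE 0.20, adjusted p = 5.81e-11). Its other probe set gave a smaller rise of 1.45. SPRR1A (1.35, adjusted p = 2.44e-07) and SPRR1B (1.47, adjusted p = 2.5e-07) rose there too, both with groups that did not overlap. Without SCC61 the mean changes of SPRR1A (0.08) and SPRR3 (0.17) did not pass. In SQ20B SPRR1A gave -0.29, SPRR1B -0.01 and SPRR3 -0.32, and none passed.

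SPRR1B also passed in SCC25 (0.62, adjusted p = 0.0295), where the arrays overlapped, and in SCC090. In SCC090 it read 9.27, 9.37 and 9.48 with cetuximab, against 8.21, 8.84 and 8.70 in control cells (0.79, SE 0.20, adjusted p = 0.0376). Without control replicate 1 this change was 0.60 (adjusted p = 0.463). In the mean of 6 lines SPRR1B rose by 0.59 (SE 0.08, adjusted p = 6.73e-07, above its control mean in 5 of 6 lines).

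FLG passed the test in 1 line. In SCC047 it read 5.31, 5.45 and 5.94 with cetuximab and a dim 4.22, 3.97 and 4.32 in control cells (1.40, SE 0.11, adjusted p = 1.19e-11). Its changes in the other 5 lines lay between -0.02 and 0.13, at levels of 3.11 to 3.47 on every array, and the change differed between lines (F test adjusted p = 3.6e-09). SCC047 was also the cancer line with the highest untreated FLG. The mean change of FLG, 0.28, was 0.06 and did not pass without SCC047.

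SCEL moved most in 93VU147T. It read 6.79, 6.81 and 6.84 there with cetuximab, against a dim 4.76, 5.12 and 5.11 in control cells (1.82, SE 0.17, adjusted p = 5.63e-10), and the mean of its probe sets gave 1.14. SCEL rose as well in SQ20B (0.60, adjusted p = 0.00516), while SCC25 gave -0.21. In SCC090 it passed (0.80, adjusted p = 0.0091) with dim arrays that overlapped (4.48 to 5.00 with cetuximab and 3.54 to 4.54 in control cells), and did not pass without control replicate 1 (0.58, adjusted p = 0.195). In the mean it rose by 0.61 (SE 0.07, adjusted p = 1.15e-08), and by 0.37 without 93VU147T.

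PPL, a plakin that ties the envelope to desmosomes and keratins, passed in SCC25, SQ20B, SCC61 and SCC090 and was above its control mean in 6 of 6 lines (mean change 0.35, adjusted p = 1.81e-09). Without control replicate 1 its SCC090 change was 0.26 (adjusted p = 0.476). In SCC25 PPL read 9.16, 8.94 and 9.02 with cetuximab and 8.34, 8.18 and 8.46 in control cells (0.71, SE 0.09, adjusted p = 6.3e-07). EVPL, its partner, rose by 0.22 in the mean and CSTB, a cysteine protease inhibitor, by 0.21, both above control in 6 of 6 lines. CSTA, the cystatin found in the envelope, passed in opposite directions. It rose in SCC25 (0.46), SQ20B (0.46) and SCC090 (0.54, or 0.40 with adjusted p = 0.281 without control replicate 1), and in SCC047 it fell to 11.34, 11.48 and 11.39 with cetuximab, against a mean of 12.12 in control cells, whose arrays all lay higher (-0.71, SE 0.12, adjusted p = 1.79e-05).

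Other envelope members that passed did so in 1 or 2 lines. KRTDAP, a secreted keratinocyte protein, rose in SCC61 (1.00, adjusted p = 0.00109), as did the dim CRNN (0.57) and PI3 (0.57). The mean change of KRTDAP (0.25, adjusted p = 0.0388) did not pass without SCC25, SCC61 or SCC090, and was 0.38 without 93VU147T. CNFN, cornifelin, fell in 93VU147T, with 5.19, 5.58 and 5.23 with cetuximab and 5.93, 5.90 and 5.64 in control cells (-0.49, adjusted p = 0.0137), and the call was lost when any of 4 arrays of that line was left out. CDSN fell in SQ20B, with 5.64, 5.88 and 5.95 with cetuximab and 6.57, 6.14 and 6.18 in control cells (-0.47, adjusted p = 0.00299), in SCC61 (-0.33, adjusted p = 0.0294) and in the mean (-0.20, adjusted p = 0.00126). None of these calls held on its other probe set, which gave -0.18 in SQ20B (adjusted p = 0.246), -0.12 in SCC61 (adjusted p = 0.419) and 0.02 in the mean (adjusted p = 0.706). SBSN and LCE3D passed in no line.

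Among the crosslinking enzymes TGM1, the membrane-bound transglutaminase of keratinocytes, had its largest rises in SQ20B and SCC61. In SQ20B TGM1 read 8.89, 8.84 and 8.87 with cetuximab, against 6.91, 6.57 and 6.96 in control cells, a 4.15-fold rise (2.05, SE 0.14, adjusted p = 8.21e-13). In SCC61 it read 8.95, 8.53 and 8.92 with cetuximab and 6.76, 6.80 and 7.16 in control cells (3.71-fold, 1.89, adjusted p = 1.36e-12). Its means with cetuximab, 8.87 in SQ20B and 8.80 in SCC61, lay between those of untreated SCC25 (8.46) and SCC047 (9.15). TGM1 rose by 0.64 in SCC25 and by 0.68 in SCC090, where it read 6.18, 6.39 and 6.44 with cetuximab and 5.49, 5.64 and 5.84 in control cells (adjusted p = 0.00965; 0.60 and adjusted p = 0.138 without control replicate 1). SCC047 and 93VU147T gave -0.31 and -0.22, neither past the threshold, and the mean was 0.79 (SE 0.06, adjusted p = 2.89e-12).

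TGM5, another epidermal transglutaminase, had changes of both signs. In 93VU147T TGM5 fell to 7.32, 7.23 and 7.09 with cetuximab, against 8.17, 8.18 and 8.14 in control cells (-0.95, SE 0.12, adjusted p = 1e-07), and in SCC047 to 6.32, 6.46 and 5.87, against 7.00, 6.93 and 6.74 (-0.67, adjusted p = 2.04e-05). In SCC61 TGM5 rose by 0.82 (adjusted p = 4.83e-07). Its mean change of -0.15 (adjusted p = 0.0096) was 0.01 without 93VU147T and -0.05 without SCC047, and neither passed. TGM3 was dim and passed in no line.

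The lipid side of the barrier was led by ABCA12, which loads lipids into lamellar granules. In SCC61 ABCA12 read 5.75, 6.31 and 5.81 with cetuximab, against a dim 3.49, 3.66 and 3.80 in control cells (2.30, SE 0.15, adjusted p = 4.38e-14). In 93VU147T it read 4.76, 4.79 and 5.01 with cetuximab and 3.73, 4.23 and 3.94 in control cells (0.89, adjusted p = 1.97e-05), and in SQ20B it rose by 0.75. All 6 lines were above their control mean (mean change 0.73, SE 0.06, adjusted p = 4.37e-11, and 0.41 without SCC61). CERS3, which makes ceramides with very long acyl chains, rose in SCC61 (0.78) and SCC25 (0.46), and its mean change of 0.23 was 0.12 and did not pass without SCC61.

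The lipoxygenases went the other way where they passed. ALOXE3 fell in SCC61 to 6.20, 5.87 and 6.13 with cetuximab, against 7.16, 6.91 and 7.11 in control cells (1.99-fold lower, SE 0.10 on the log2 scale, adjusted p = 7.69e-10), and by 0.38 in SCC047. In the mean over all 6 lines ALOXE3 had the largest fall of the 38 genes (-0.29, adjusted p = 9.94e-07, below its control mean in 5 of 6 lines). Without SCC61 it was -0.15, and TGM5 was then lower, at -0.34. ALOX12B read 5.32, 5.26 and 5.02 in SCC047 with cetuximab and 6.03, 6.07 and 5.47 in control cells (-0.66, adjusted p = 0.000119). In SCC61 ABCA12 and CERS3 thus rose while ALOXE3 fell.

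**Figure D4:**
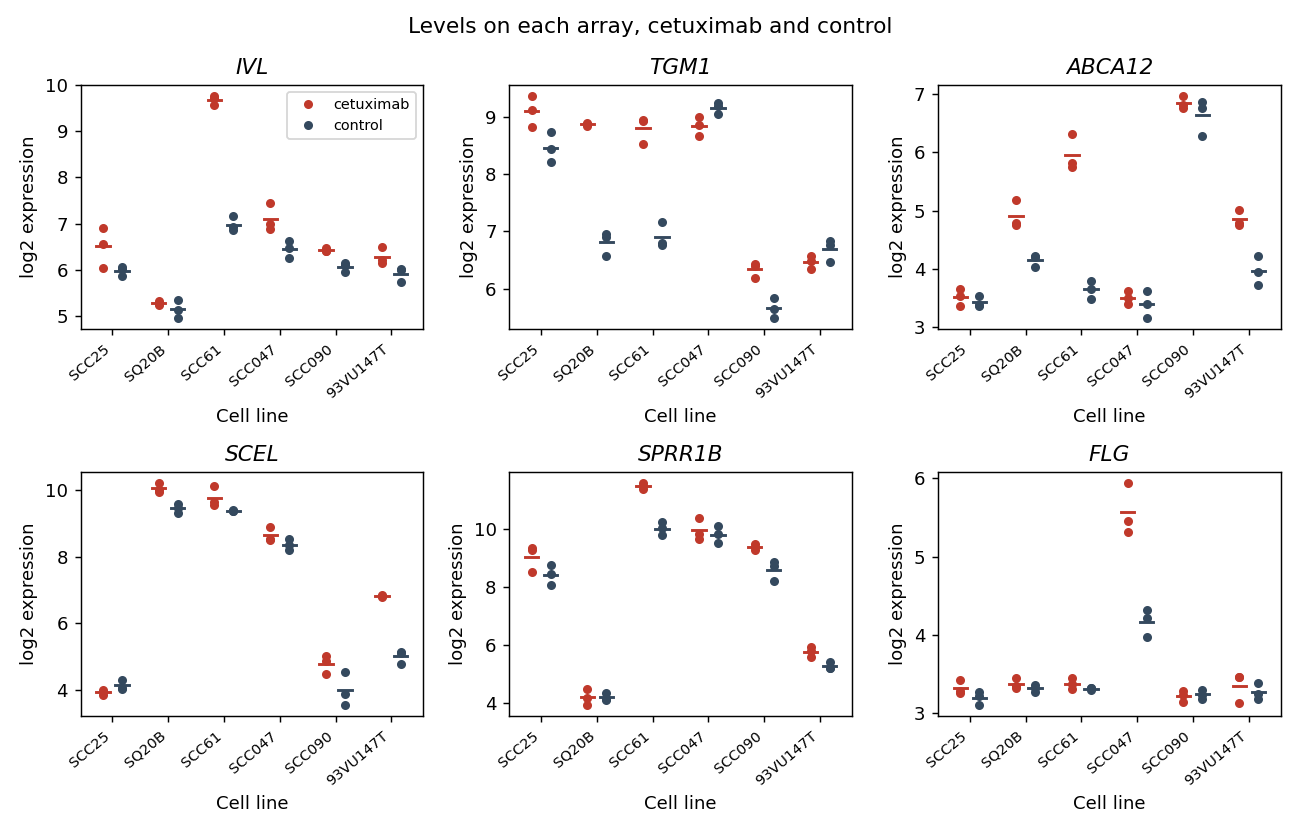
Log2 level on each array (points) and group mean (bars) of 6 genes in 6 lines, cetuximab in red to the left of control in dark grey, 3 arrays each. IVL separates most in SCC61, TGM1 in SQ20B and SCC61, ABCA12 in SCC61, SCEL in 93VU147T and FLG in SCC047.

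Of the 6 transcription factors GRHL1 and GRHL3 passed in the most lines. GRHL1, a Grainyhead factor, rose in SCC25 (0.71), SQ20B (0.80), SCC61 (1.20) and 93VU147T (0.36), with groups that did not overlap in any of the 4, and by 0.55 in the mean (SE 0.05, adjusted p = 7.8e-11). In SCC61 it read 7.39, 7.74 and 7.47 with cetuximab and 6.46, 6.48 and 6.04 in control cells. GRHL3, which drives barrier genes in mouse epidermis, rose most in SCC047, with 7.84, 7.74 and 7.80 with cetuximab and 6.87, 7.05 and 6.92 in control cells (0.85, SE 0.08, adjusted p = 2.22e-10). In 93VU147T GRHL3 read 6.27, 6.36 and 6.32 with cetuximab and 5.93, 5.80 and 5.78 in control cells (0.48, adjusted p = 7.22e-06), and in the mean it rose by 0.31 (adjusted p = 1.05e-09), or by 0.21 without SCC047.

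ZNF750 rose in SCC25, with 6.50, 6.23 and 6.35 with cetuximab and 5.75, 5.29 and 5.26 in control cells (0.93, SE 0.20, adjusted p = 0.00138). In SQ20B it read 4.15, 3.83 and 3.81 with cetuximab and 3.11, 2.91 and 3.17 in control cells (0.87, adjusted p = 0.00106), below the median of all values throughout. Its mean change was 0.44 (adjusted p = 6.12e-05). OVOL1, a zinc finger factor of epithelial differentiation, rose by 0.18 in the mean (adjusted p = 0.00255) and passed in SCC61 alone among the lines. Without SCC61 the mean was 0.11 and did not pass. PRDM1 gave -0.05 in the mean and passed in no line.

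KLF4 was the factor that fell. In 93VU147T KLF4 read 8.88, 8.72 and 8.79 with cetuximab, against a mean of 9.54 and a lowest array of 9.25 in control cells (-0.74, SE 0.13, adjusted p = 4.69e-05), and in SCC61 9.23, 9.32 and 9.39 with cetuximab, against 9.94, 9.98 and 10.01 in control cells (-0.67, adjusted p = 0.000112). The arrays did not overlap in either line. Its mean change was -0.14 (adjusted p = 0.0345), with 3 of 6 lines below their control mean. It did not pass without 93VU147T (-0.02), SCC61 (-0.04) or SQ20B (-0.13), and was -0.21 to -0.23 without any of the others, where SCC047, SCC25 and SCC090 gave 0.29, 0.24 and 0.22 without passing.

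The protease inhibitor SLPI rose most in SQ20B, with 11.06, 11.02 and 11.13 with cetuximab and 10.06, 9.29 and 10.02 in control cells (2.43-fold, 1.28, SE 0.21, adjusted p = 8.94e-06). In SCC25 its lowest array with cetuximab was at 10.63, above the control arrays at 10.26, 10.05 and 9.94 (0.72, adjusted p = 0.0139), and it rose in SCC61 (0.65, adjusted p = 0.00991). TMPRSS11D, a trypsin-like protease of airway and oral epithelium, fell in SQ20B to 5.37, 5.55 and 5.43 with cetuximab, against 6.10, 5.94 and 5.82 in control cells (-0.50, SE 0.11, adjusted p = 0.000443). Its mean change of -0.15 (adjusted p = 0.0064) was -0.08 and did not pass without SQ20B. CALML3 rose in the mean (0.28, adjusted p = 0.00959) though in no single line, and not without SCC090 (0.21) or 93VU147T (0.23), and CALML5 and A2ML1 passed nowhere.

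The membrane proteins split. MAL, a raft protein of apical transport, rose in SCC090, with 8.34, 8.50 and 8.66 with cetuximab and 6.52, 8.01 and 7.85 in control cells (1.04, SE 0.20, adjusted p = 0.00355), and by 0.57 without control replicate 1, still past the threshold. EMP1, an epithelial membrane protein, rose in SCC047 (0.47) and SQ20B (0.35) and fell in 93VU147T (-0.45). RHCG, an ammonia transporter, fell in SCC047 (-0.34) and 93VU147T (-0.32), at levels close to the median of all values, and in the mean (-0.17, adjusted p = 0.00261).

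Line by line, SCC61 had the most calls, with 18 of 38 members higher (47.4%, background 24.4%) and 3 lower (7.89%, background 19.8%), and a median member change of 0.28 against -0.03 over all genes. In SCC25 10 were higher (background 8.66%) and 0 lower (background 7.30%). The SCC25 count was 5 without cetuximab replicate 1 and 6 without control replicate 2 or 3. In SQ20B 11 were higher (background 18.4%) and 2 lower (background 14.9%). In SCC047 4 were higher (background 17.3%) and 5 lower (background 19.0%), and in 93VU147T 6 were higher (background 15.8%) and 5 lower (background 18.8%). With the values as deposited and replicates not paired, the share of members higher was near or below that of all genes in SCC047 and 93VU147T. Centring the arrays gave 8 members higher in 93VU147T, of 3313 genes higher in all, against 6 of 3129 as deposited. Leaving out SCC090 control replicate 1, which also enters the shared spread, gave 8 higher and 6 lower in SCC047. Leaving SCC61 out of the mean left 14 members higher and 5 lower. Shares over all genes were not computed for the SCC25, SCC047 and mean fits with an array or line left out.

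SCC090 had few calls over all genes, and 6 members were higher there (15.8%, background 0.516%) and 0 lower (background 0.885%). The 6 were MAL, SPRR1B, TGM1, CSTA, PPL and SCEL, and only CRNN, FLG and PRDM1 had a change below 0. This count rested on single arrays. Without control replicate 1, on which MAL, ZNF750 (7.43, against 8.69 and 8.83), SLPI (6.72, against 8.11 and 7.89) and CALML3 (8.28, against 9.60 and 9.46) were all low, 1 member passed (MAL), of 18 genes higher in all. Without control replicate 2 the count was 13 (background 1.41%), and without cetuximab replicate 3 it was 1 (background 0.228%). Quantile normalization changed the split of all SCC090 calls to 136 higher and 148 lower, against 102 and 175 as deposited, with 8 members higher and 0 lower.

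RNA integrity, read as the 3′ minus 5′ probe set signal of ACTB, differed with treatment in some lines. It was 0.29 higher with cetuximab in SQ20B, 0.11 in SCC047 and 0.07 in SCC25, with arrays that did not overlap, and overlapped in SCC61, SCC090 and 93VU147T. The same measure of GAPDH was higher without overlap in SQ20B (0.07) and SCC047 (0.04). In SCC25 (0.00) and the other lines its arrays overlapped. The part of RNA integrity in the member changes was not tested. SQ20B control replicate 3 was scanned with another batch, and without it TGM1 changed by 2.13 in SQ20B.

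The response differed between lines for 28 of 38 members (73.7%, background 59.0%) by the F test on the 6 changes. The largest F values belonged to TGM1 (adjusted p = 3.12e-12), IVL (2.78e-11), ABCA12 (4.19e-10) and TGM5 (5.9e-10). Across lines 21 members passed as higher in 1 or more and lower in none, 7 as lower in 1 or more and higher in none (CNFN, CDSN, ALOX12B, ALOXE3, KLF4, RHCG and TMPRSS11D), and TGM5, CSTA and EMP1 in both directions. TGM1, CSTA, PPL, GRHL1 and GRHL3 passed in 4 or more lines, and TGM3, SBSN, LCE3D, CALML3, CALML5, A2ML1 and PRDM1 in none. Without SCC090 control replicate 1, TGM1, CSTA and PPL passed in 3 lines, GRHL1, GRHL3 and SLPI in 4, and CALML5 in 1. MAL, KLF4 and ZNF750 then passed in 3 lines, and CALML3, SPRR3 and OVOL1 in 2. These counts take rises and falls together, and the grouping by direction was made with all 36 arrays. Shares over all genes were not computed for any of these groupings across lines. The counts therefore do not say whether the members differ from other genes.

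Other genes of the same program, from lists of related genes, were counted in the same fits. These lists too were chosen with earlier results of these data known, so their shares are a description. Of 25 measured other envelope genes 11 were higher (44%, background 22.8%) and 6 lower (24%, background 23.1%) with cetuximab in the mean, LY6D (0.67), LYPD3 (0.61) and the kallikrein KLK5 (0.44) being the largest rises and TGM2 (-0.56) the largest fall. Without SCC61 KLK5 was at 0.21, and without SCC047 TGM2 was at -0.37. Of 15 other barrier lipid genes 3 were higher (20%) and 4 lower (26.7%), both near the background, with ABHD5, a lipase cofactor, at 0.47 and the glucosylceramide synthase UGCG at -0.27 (-0.16 without SCC61 or SCC047). Of 20 other regulators 9 were higher (45%) and 5 lower (25%), with EHF (0.46), GATA3 (0.45) and ELF3 (0.44) among the rises and the AP-1 subunit FOSL1 (-1.02) as the largest fall. These 4 changed most in SQ20B, and without it the means were 0.27 for EHF, 0.14 for GATA3, 0.23 for ELF3 and -0.57 for FOSL1.

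In SCC61 the other envelope genes included KLK5 (1.61), CASP14 (1.59) and SPRR2B (1.48) as higher, and TGM2 (-0.65), the small proline-rich SPRR4 (-0.54) and the suprabasal keratin KRT10 (-0.47) as lower. In HaCaT against the cancer lines 12 of the 25 envelope genes were higher (48%, background 25.2%) and 6 lower (24%, background 30.6%), led by the suprabasal keratin KRT1 (6.36) and RPTN (4.85), an S100-fused protein of the same cluster as FLG. Of the 15 barrier lipid genes 1 was higher (6.67%) and 6 were lower (40%), and of the 20 regulators 13 were higher (65%) and 2 lower (10%), with MAF at 3.11 and FOSL1 at -1.87.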

How the data were processed

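The deposited values are log2 levels of hgu133plus2.0 probe sets that the authors computed with fRMA 1.16.0, which corrects background, normalizes against a frozen reference and summarizes probes. A batch correction, pSVA, is described too, without saying if the deposited values carry it. Of 54675 probe sets 41097 carry 1 gene and 1801 carry several genes and were not used. Gene identifiers matched for 41043.

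Group means were fitted with limma 3.58.1 in R 4.3.3 to 36 arrays for the changes (24 residual and 6.86 prior degrees of freedom) and to 21 control arrays for untreated cells (14 and 6.91). Moderated F tests compared lines. The number of arrays limits the precision. Deviations of same-numbered arrays correlated between -0.15 in SCC090 and 0.32 in 93VU147T, with 7 of 18 pair correlations over 0.1. Replicates were not paired in the main fit. Promoter sequences are RefSeq's, GRCh38.p14.

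Members and lists were chosen with earlier results of these data known. Named members are the 5 largest called rises and falls in the mean, up to 3 of each per line with groups that do not overlap, the 6 widest untreated ranges, the 4 largest HaCaT differences each way, all factors, and 2 check genes. The fits were tested on simulated data. Alternatives were other probe set choices, a filter on dim genes, other scalings, moderation with a trend, the replicate number as a block, a fit of all 42 arrays, and each array or line left out. Some listed genes were not analysed here.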

Additional observations from a re-analysis of the deposited data

Results flagged for a closer look

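The change with cetuximab differed between lines for 28 members by the moderated F test, adjusted over all genes (background 59.0%). Among envelope precursors the adjusted p was 2.78e-11 for IVL, 3.6e-09 for FLG, 3.08e-08 for SPRR3, 2.54e-07 for CSTA, 3.31e-07 for SCEL, 1.56e-05 for SPRR1A, 0.000551 for SPRR1B, 0.000631 for PPL, 0.00563 for KRTDAP, 0.00969 for CRNN, 0.022 for CSTB and 0.0417 for CNFN. Among crosslinking enzymes it was 3.12e-12 for TGM1 and 5.9e-10 for TGM5. For the barrier lipid genes it was 4.19e-10 for ABCA12, 1.8e-06 for ALOXE3, 0.00186 for CERS3 and 0.00293 for ALOX12B. The factors gave 1.26e-07 for GRHL3, 1.3e-06 for GRHL1, 5.27e-06 for KLF4, 0.00165 for ZNF750 and 0.00701 for OVOL1. The remaining members gave 9.07e-07 for EMP1, 5.91e-05 for SLPI, 0.000689 for MAL, 0.0295 for TMPRSS11D and 0.0385 for CALML5.

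The 3 cetuximab arrays of SCC1, which entered no comparison, held 2 members above every control array. The share of all genes placed so was not computed. Together with SQ20B control replicate 3, these 3 arrays form the scan batch of 4 arrays. Cell line, treatment and scan batch thus cannot be told apart here. RHCG averaged 7.86 in SCC1 with cetuximab (7.65 to 8.13), against at most 5.48 on all other arrays. CALML5 averaged 6.65 in SCC1 with cetuximab (6.51 to 6.71), against at most 6.17 on the 21 control arrays, and its range overlapped that of SCC090 cells with cetuximab, which reached 6.60. Control arrays of SCC1 were not analysed here, so neither level can be set against untreated SCC1 cells.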

How the results depend on the processing

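For the 10 counts of members, other probe set choices, a filter on dim genes, centred medians, quantile normalization, moderation with a trend, a fit of all 42 arrays, HaCaT arrays 1 and 2 as 1, and lines left out of the mean kept each count within 1.5 times its value. With single arrays left out, the count ranged from 5 to 10 in SCC25 (5 without cetuximab replicate 1, 6 without control replicate 2 or 3), from 8 to 14 in SCC047 (14 without SCC090 control replicate 1) and from 1 to 13 in SCC090 (1 without control replicate 1 or cetuximab replicate 3, 3 without cetuximab replicate 2, 13 without control replicate 2). With the replicate number as a replicate block the count in the mean was 25, and the other counts kept their values too. A replicate block within each line, chosen after seeing the data, gave 10 in place of 6 in SCC090, 25 in the mean, and 10 to 22 in the other lines. In 93VU147T it gave 10 members higher and 6 lower, of 3194 and 3803 genes over all, in place of 6 and 5. In SCC047 it gave 6 higher and 7 lower, of 3487 and 3830, in place of 4 and 5. For the 47 named results 2061 alternative values were computed, of which 2035 kept direction and call, 24 kept direction and lost the call, and 2 changed sign. Those 2 were CDSN in the mean on its other probe set (0.02) and TGM5 in the mean without 93VU147T (0.01). The cause was not tested. CDSN, CNFN in 93VU147T, SLPI in SCC25, SPRR1B and TGM1 in SCC090, TMPRSS11D and TGM5 in the mean and CALML3 in HaCaT lost the call under 1 or more settings. The 3 arrays a group, dim members and HaCaT arrays in 1 scan batch limit these results.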

Other observations

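In SCC1 cells with cetuximab, IVL (5.57) and FLG (3.31) were far below their untreated HaCaT levels, while SPRR3 (8.02), SPRR1B (7.79) and SCEL (7.74) were above the median of all values. The factors ZNF750 and GRHL1 averaged 7.82 and 8.23 in SCC1 with cetuximab, and the highest of all other arrays were 9.30 for ZNF750 and 8.97 for GRHL1. SLPI averaged 7.94 there, and the highest of all other arrays was 12.45.

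Some other pairs of members had like untreated profiles over the 7 lines. KRTDAP and CERS3 had r = 0.94, both highest in SCC25, and ABCA12 had r = 0.94 with CNFN and with CALML5, all 3 highest in SCC090. Each rests on 7 points with 1 line at the top, and is a description.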
